A study of Mus musculus with 6 samples.

Results

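The complement system was examined through 9 genes that encode its components and receptors, C1qa, C1qb, C1qc, C3, C4b, Cfb, Serping1, C3ar1 and C5ar1, in the right hippocampus of mice with chronic cerebral hypoperfusion. The genes were found by symbol among 54752 counted genes, and all 9 matched 1 gene each. RNA was sequenced from 3 mice with bilateral carotid artery stenosis (BCAS) and 3 mice with sham surgery, with 1 library per mouse. All 6 mice were wild-type (WT) male C57BL/6 animals, named C57BL/6 J in the study's methods. The labels give 14 weeks as the time, read here as age, and tissue was taken 3 weeks after the operation. In BCAS mice microcoils narrowed both common carotid arteries, with the tighter coil on the right side, whereas sham mice went through the same operation without coils. The tissue was the whole hippocampus of that side, so the values are averages over all its cell types and subfields. The libraries held 29652456 to 35607098 counts on genes. The neuronal genes Snap25 and Slc17a7 were abundant in every library, and Prox1, a marker of dentate granule cells, lay between 58.2 and 116 CPM (counts scaled to library size). In bulk tissue of this kind, fewer or more cells of a type and less or more RNA per cell cannot be told apart.

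Complement is a cascade of proteins that tag cells, debris and, in the brain, synapses for removal. C1q, a protein built from the products of C1qa, C1qb and C1qc, starts the classical pathway by binding its target and recruiting the proteases C1r and C1s. These cleave C4 and C2, and the enzyme so formed cleaves C3, whose fragments mark the target, while factor B (Cfb) drives the alternative pathway loop that also ends at C3. Serping1 encodes the C1 inhibitor, which blocks C1r and C1s. The small fragments C3a and C5a signal through the receptors C3ar1 and C5ar1. In the healthy brain C1q is made mainly by microglia, and C4 and C3 can be made by glia under stress.

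All members lie on the minus strand of the mm10 assembly. C1qb (chr4:136880129-136886187), C1qc (chr4:136889804-136893065) and C1qa (chr4:136895917-136898803) stand in a row on chromosome 4. C4b (chr17:34728380-34743882), Cfb (chr17:34856374-34862518) and C3 (chr17:57203970-57228136) are on chromosome 17. Serping1 is at chr2:84765387-84775444, C3ar1 at chr6:122847138-122856161 and C5ar1 at chr7:16246743-16259540. With the exception of Cfb, no member shares an exonic base with another annotated gene.

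The sequence just upstream of a gene is shown for C1qb and C1qc, which moved together, and for C3, which moved furthest. RefSeq windows on GRCm38.p6, the assembly also called mm10, were matched for 5 of the 9 members. C1qa, C4b, Cfb and Serping1 were not matched. The printed stretches lie before the first exon, at chr4:136886201-136886450 for C1qb, chr4:136893066-136893164 for C1qc and chr17:57228137-57228386 for C3, and run 5′ to 3′ on the minus strand. Capitals mark matches, on either strand, to the letters GGAAGT (the ETS core, bound by myeloid factors such as PU.1), TTGCNNAA (bound by C/EBP factors) and GGGA followed after any 4 bases by CC (the ends of an NF-kappaB site).
C1qb: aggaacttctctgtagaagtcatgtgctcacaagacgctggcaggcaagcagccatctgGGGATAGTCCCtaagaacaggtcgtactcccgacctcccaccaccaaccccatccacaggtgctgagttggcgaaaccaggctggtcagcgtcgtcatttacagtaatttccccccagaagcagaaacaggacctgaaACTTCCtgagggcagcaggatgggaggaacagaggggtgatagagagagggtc
C1qc: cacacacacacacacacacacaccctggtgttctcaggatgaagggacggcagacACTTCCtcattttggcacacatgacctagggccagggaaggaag
C3: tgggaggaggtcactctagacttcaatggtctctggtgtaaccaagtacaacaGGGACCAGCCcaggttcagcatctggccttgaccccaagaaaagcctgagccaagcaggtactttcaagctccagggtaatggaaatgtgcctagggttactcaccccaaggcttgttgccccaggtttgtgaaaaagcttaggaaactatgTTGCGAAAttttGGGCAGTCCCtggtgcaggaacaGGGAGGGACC
The ETS core stands as ACTTCC, its reverse complement, 53 bases before the RefSeq start of C1qb and 195 bases before that of C1qc. The C1qc stretch holds only 99 bases, because the first exon of the counted gene begins before the RefSeq start. Its match therefore lies nearer to that exon than to the RefSeq start. The C/EBP match TTGCGAAA stands 45 bases before the start of C3. The capitals GGGATAGTCCC of C1qb are overlapping matches to the NF-kappaB letters, 1 on each strand. Among 32851 RefSeq windows of 300 bases, 23.8% hold the ETS letters, 10.8% the C/EBP letters and 20.7% the NF-kappaB letters, so such matches are frequent. The interferon letters GAAA, any 2 bases and GAAA again (3.44% of windows) and TTCNNNGAA (8.3% of windows) were not found in the stretches of C1qb, C1qc or C3, and none of the 5 motifs was found in the 246 bases upstream of C3ar1 that lie outside exons. For C5ar1 only 48 such bases were left, without a match, and its window of 300 bases holds the ETS letters elsewhere, as that of C1qc holds the NF-kappaB letters. These matches describe letters only.

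The question of the comparison was how the hippocampal transcriptome differs after BCAS, here for the complement genes. Of the 9 members, 8 had enough counts to be tested, and all 8 were differentially expressed genes (DEGs), which needed an adjusted P below 0.05 together with a log2 fold change beyond 1 in size, with higher levels in BCAS mice. Among all 18617 genes tested, 8.47% were up-regulated DEGs. The median log2 fold change was 3.77 over the 8 tested members and 0.02 over all tested genes. In each of these 8 genes every BCAS library was above every sham library, an arrangement seen in 25.3% of all tested genes. The lowest count of a tested member in any sham library was 16, for C5ar1. Cfb did not pass the filter on low counts and was not tested.

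As counted, the C1q genes were the most abundant members by group mean. C1qa was at 35.9, 33.2 and 36.3 CPM in sham mice 1 to 3 and at 431, 491 and 704 CPM in BCAS mice 1 to 3. The sham libraries lay close to each other, and every BCAS library was far above them. The mean of C1qa was 35.1 ± 1.68 CPM in sham mice and rose 15.4-fold to 542 ± 143 CPM (SD, n = 3 each), with a log2 fold change of 3.95 (SE 0.18, adjusted P = 8.27e-06 in edgeR's quasi-likelihood test). C1qb was at 37.9, 34.2 and 43.6 CPM in sham mice and 414, 477 and 721 CPM in BCAS mice. C1qc was at 33.1, 32.8 and 35.3 CPM in sham mice and 341, 414 and 593 CPM in BCAS mice. Both genes showed the order of C1qa, with BCAS mouse 3 the highest and BCAS mouse 1 the lowest of their group. The log2 fold changes were 3.80 for C1qb (SE 0.21, adjusted P = 1.47e-05) and 3.74 for C1qc (SE 0.19, adjusted P = 1.16e-05).

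The 3 C1q subunits kept nearly the same proportions while their level changed. Per kilobase of exon, the RPKM of C1qa over that of C1qb was 0.992, 1.02 and 0.872 in sham mice and 1.09, 1.08 and 1.02 in BCAS mice. C1qa over C1qc was 2.02, 1.88 and 1.91 in sham mice and 2.34, 2.20 and 2.21 in BCAS mice. In both ratios the groups did not overlap, with a slightly greater share of C1qa in BCAS mice, and the exact two-sided permutation test gave P = 0.1, the smallest value 3 against 3 libraries allow. C1qb over C1qc averaged 2.02 ± 0.172 in sham and 2.12 ± 0.0642 in BCAS mice (SD, n = 3 each, exact permutation P = 0.6), and its groups overlapped. The C1q genes made up 69.1 to 71.5% of the member counts with sham surgery and 70.7 to 77.5% after BCAS.

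C3, the central component on which all pathways converge, rose most among the members. It was counted 54, 33 and 27 times in sham mice, against 1287, 1431 and 2062 times after BCAS, which is 1.59, 0.987 and 0.787 CPM against 39.6, 47.4 and 66.1 CPM. C3 was therefore low but above the detection floor of 3 counts in each sham library, and the gap between the groups was wide. Its mean rose 45.5-fold, from 1.12 ± 0.420 to 51.0 ± 13.6 CPM (SD, n = 3 each), with a log2 fold change of 5.50 (SE 0.28, adjusted P = 1.16e-05).

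C4b, which encodes the C4 that C1s cleaves, was already present at 32.8, 28.3 and 32.3 CPM in sham mice and stood at 380, 270 and 421 CPM in BCAS mice. Here BCAS mouse 2 was the lowest, whereas in the C1q genes BCAS mouse 1 was. The mean rose 11.5-fold, from 31.1 ± 2.45 to 357 ± 77.8 CPM (SD, n = 3 each), with a log2 fold change of 3.52 (SE 0.17, adjusted P = 8.27e-06). Its paralog C4a (chr17:34809092-34823464), the sex-limited protein of the mouse, is a near-identical copy, and reads that aligned equally well to both were not counted. C4a was at 1.00, 1.65 and 1.86 CPM in sham mice and 2.15, 1.56 and 2.24 CPM in BCAS mice, with overlapping groups and a log2 fold change of 0.40 (SE 0.31, adjusted P = 0.363). Counts on C4b were 32.7, 17.2 and 17.3 times those on C4a in sham mice and 176, 174 and 188 times in BCAS mice (exact permutation P = 0.1, the smallest possible).

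Serping1, the inhibitor of the classical proteases, changed least among the tested members. It was at 7.67, 7.69 and 15.1 CPM in sham mice and 40.0, 38.0 and 49.2 CPM in BCAS mice. Sham mouse 3 stood 1.97 times above the lowest sham mouse, but still below every BCAS mouse. The mean rose 4.17-fold, from 10.2 ± 4.30 to 42.4 ± 5.98 CPM (SD, n = 3 each), with a log2 fold change of 2.06 (SE 0.26, adjusted P = 5.32e-04). The summed level of 4 fibroblast markers, cells that also make Serping1, was 115, 76.8 and 159 CPM in sham mice and 158, 250 and 269 CPM in BCAS mice, so it was highest among sham libraries in the same mouse 3. Its part in the Serping1 values was not tested.

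The receptors were scarce in sham mice and rose. C3ar1, the receptor for C3a, was at 1.89, 2.39 and 2.88 CPM in sham mice and 29.4, 41.1 and 61.9 CPM in BCAS mice. Its mean was 18.5-fold higher in BCAS mice, with a log2 fold change of 4.21 (SE 0.29, adjusted P = 2.75e-05). C5ar1, the receptor for C5a, was counted 26, 19 and 16 times in sham mice, against 98, 149 and 298 times after BCAS. The groups did not overlap, yet the BCAS mice differed from each other by 3.17 times between the highest and the lowest, the widest spread among the members. The mean of C5ar1 was 0.600 ± 0.153 CPM in sham mice and rose 9.71-fold to 5.83 ± 3.36 CPM (SD, n = 3 each), with a log2 fold change of 3.27 (SE 0.45, adjusted P = 9.25e-04).

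Cfb was counted 1, 2 and 0 times in sham mice, against 4, 5 and 6 times after BCAS. All sham libraries were at or under 3 counts, and each BCAS library was just above. The total was 3 counts against 15, a rate ratio of 5.41 with an exact 95% interval of 1.53 to 29.2 that covers counting error only. This interval is too narrow even for that, since mates of a pair were counted separately and 1 fragment can give 2 counts. With the low-count filter removed, the log2 fold change was 2.29 and the adjusted P 0.295. These counts come from a small part of the gene. Of the 2825 exonic bases of Cfb, 2246 (79.5%) are also exonic in Gm20547, an annotated gene on the same strand (chr17:34856412-34882042) that runs through both C2 and Cfb, and 579 bases are left to Cfb alone. Under the counting rules in the file headers, a read on bases of both genes went to neither. The level of Cfb is therefore not measured by these counts. All 3902 exonic bases of Gm20547 are shared, 2246 with Cfb and 1656 with C2, so its own 0 counts in all 6 libraries follow from the counting rule and say nothing of its expression.

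**Figure D1:**
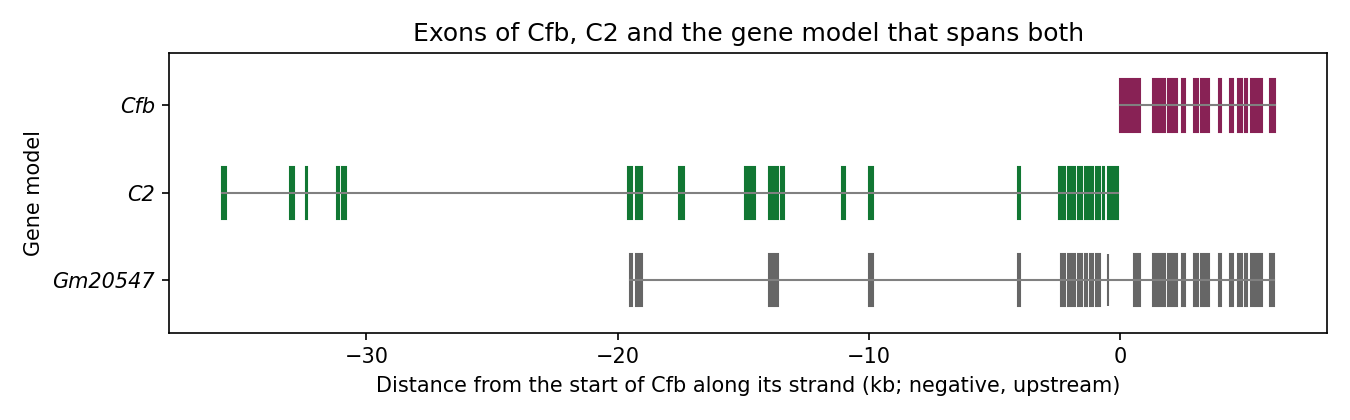
Exons (boxes) of Cfb, C2 and Gm20547 against the distance in kb from the start of Cfb along its strand, where negative values are upstream. Nearly all exons of Cfb coincide with exons of Gm20547, which share 2246 of its 2825 exonic bases.

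Levels were set against each other per length, as RPKM. In sham mice the order from high to low was C1qb (35.4 RPKM), C1qa (33.8), C1qc (17.5), C4b (5.47), Serping1 (4.37), C3ar1 (0.555), C5ar1 (0.234) and C3 (0.218), with Cfb left out. The ranges of C1qb and C1qa, of C4b and Serping1, and of C5ar1 and C3 overlapped, so these neighbours were not separated by their spread. In BCAS mice the order was C1qa (521 RPKM), C1qb (494), C1qc (233), C4b (62.7), Serping1 (18.3), C3ar1 (10.3), C3 (9.92) and C5ar1 (2.27). Here the ranges of C1qa and C1qb and of C3ar1 and C3 overlapped. C3 thus stood at the level of C5ar1 in sham mice and at that of C3ar1 in BCAS mice, and C4b moved clear of Serping1. The RPKM of C4b leaves out reads that fit C4a equally well but divides by its full exonic length. Its level may therefore be understated, which limits its place in both orders.

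**Figure D2:**
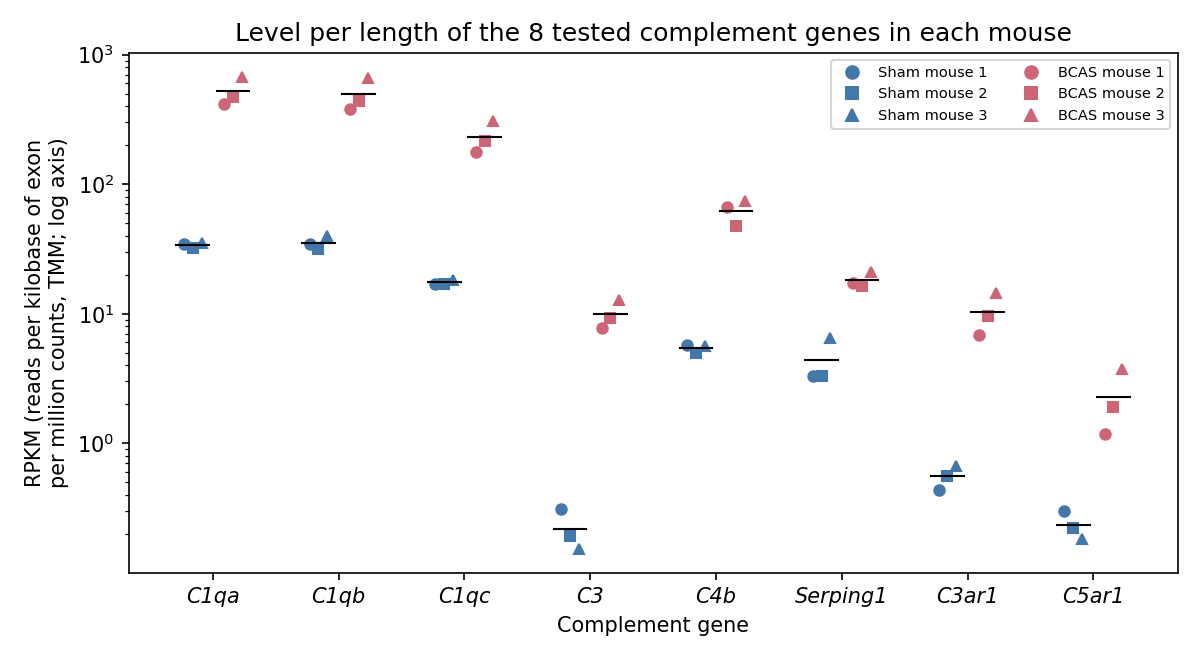
RPKM (TMM-scaled, log axis) of the 8 tested complement genes, with 1 point per mouse (blue, sham; red, BCAS) and a black line at each group mean. The groups do not overlap in any gene, and C3 covers the widest distance between the groups among them.

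The roles were then compared within each library, as the log2 CPM of a member minus the mean log2 CPM of C1qa, C1qb and C1qc. C3 was at -4.43, -5.00 and -5.50 in sham mice and -3.31, -3.28 and -3.34 in BCAS mice. Relative to C1q, C3 was therefore 3.17-fold higher in BCAS mice (difference 1.66 on the log2 scale, exact permutation P = 0.1), with no overlap and with BCAS libraries that lay close together. Serping1 was at -2.20, -2.11 and -1.33 in sham mice and -3.30, -3.59 and -3.77 in BCAS mice. Relative to C1q the inhibitor was thus lower in every BCAS mouse, with a difference of -1.67 (exact permutation P = 0.1). C4b differed from C1q by -0.30 (exact permutation P = 0.4), C3ar1 by 0.34 (P = 0.2) and C5ar1 by -0.77 (P = 0.2), each with overlapping groups. In the family of 16 such comparisons the smallest adjusted P was 0.1455, so none could pass the threshold with 3 mice per group. The ratios between C1q subunits and between C4b and C4a are not part of this family.

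The same was done against 10 microglia markers, among them P2ry12, Tmem119, Siglech, Cx3cr1 and Fcrls, because these markers also rose. All 10 were up-regulated DEGs, with log2 fold changes from 1.54 (P2ry12, a receptor of resting microglia) to 3.54 (Fcrls) and a median of 2.64, and their summed level was 344 to 367 CPM in sham and 1813 to 2914 CPM in BCAS mice. Relative to these markers, C1qa was at 0.42, 0.41 and 0.48 in sham mice and 1.79, 1.93 and 1.81 in BCAS mice. The C1q genes thus stood higher against the microglia markers in every BCAS mouse, by 1.41 for C1qa, 1.26 for C1qb and 1.19 for C1qc on the log2 scale (exact permutation P = 0.1 for each). C3 differed by 2.95, C3ar1 by 1.62 and C4b by 0.99, also without overlap (exact permutation P = 0.1 for each). C5ar1 differed by 0.52 (exact permutation P = 0.3) and Serping1 by -0.38 (P = 0.5), with overlapping groups, and the value of Serping1 turned to 0.22 when P2ry12, Tmem119 and Siglech alone served as the reference.

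Against 8 astrocyte markers, cells that can also make C3, C4 and Serping1, the differences were 4.38 for C3, 2.42 for C4b and 1.04 for Serping1 on the log2 scale (exact permutation P = 0.1 for each, no overlap). The astrocyte list rose less than the microglia list, from a summed 4407 to 4707 CPM in sham to 9421 to 9965 CPM in BCAS mice. Of its genes 2 of 8 were DEGs, Gfap, the filament protein of reactive astrocytes and the most abundant of the list per length in BCAS mice (log2 fold change 3.29), and the water channel Aqp4 (1.67). In sham mice Aldoc was the most abundant per length. At an adjusted P under 0.05 alone, 7 of the 8 genes were higher, against 18.0% of all tested genes. Every BCAS library was above every sham library in all 8, an arrangement seen in 25.3% of all tested genes.

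**Figure D3:**
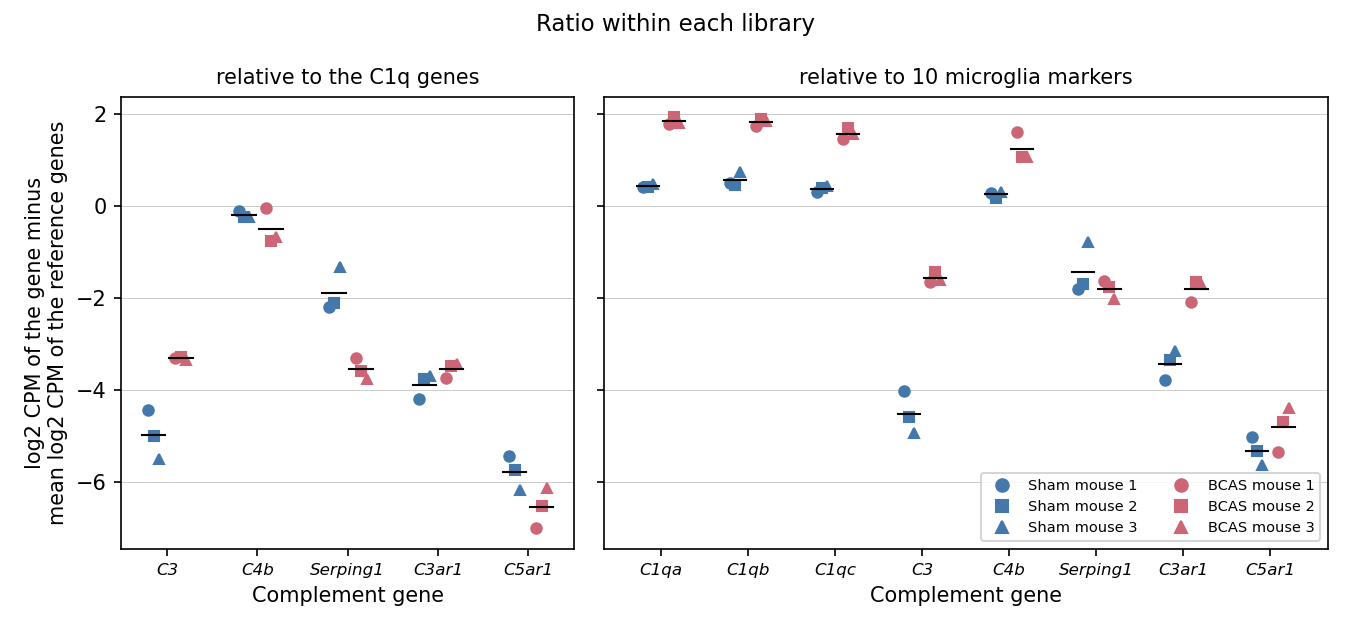
The log2 ratio of each member to the C1q genes (left) and to 10 microglia markers (right) within each library, with 1 point per mouse (blue, sham; red, BCAS) and a black line at each group mean. C3 stands higher and Serping1 lower against C1q in all 3 BCAS mice, while C4b, C3ar1 and C5ar1 overlap.

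Other lists of cell type markers were read beside these values. The monocyte list (3 of 4 genes up-regulated DEGs) summed to 0.449 to 1.03 CPM in sham and 5.54 to 11.1 CPM in BCAS mice, with Plac8 the most abundant per length in BCAS mice and Chil3 in sham mice. The T cell list (4 of 5, with Trbc2 the most abundant) summed to 0.413 to 1.26 and 5.29 to 6.63 CPM, and the list of border macrophages (3 of 5, with Pf4 the most abundant) to 7.57 to 10.5 and 19.7 to 27.4 CPM. The summed levels of these 3 lists did not overlap between the groups and lay far below that of the microglia list, while Chil3, Trbc2, Lyve1 and Pf4 did not pass the test. Among all tested genes, 8.47% were up-regulated DEGs. Cd3e, Cd3d, Cd3g, Cd8a, Ly6c2 and Plac8 had 0 to 6 counts in each sham library. They passed the filter on low counts only through the BCAS mice, which limits what their calls show. The neutrophil list overlapped between the groups (0.389 to 2.19 and 0.707 to 2.52 CPM), with S100a9 its most abundant gene per length and its marker Ly6g at 0 counts in all libraries. Of the fibroblast list, led by Dcn, 2 of 4 genes were up-regulated DEGs, of the pericyte list, led by Rgs5, 1 of 4, and of the lists for endothelial cells (Cldn5), oligodendrocytes (Mbp) and choroid plexus (Ttr) 0 of 5 each. At an adjusted P under 0.05 alone, 3 of 4 fibroblast, 3 of 4 pericyte and 3 of 5 endothelial genes were higher. In the oligodendrocyte and choroid plexus lists 0 of 5 each were, against 18.0% of all tested genes. The choroid plexus list ranged from 70.4 to 4101 CPM in sham and from 47.6 to 5956 CPM in BCAS mice. Ttr alone ranged from 38.0 to 3769 CPM in sham and from 23.7 to 5456 CPM in BCAS mice. The liver genes other than Ttr, led by Apoa2, a sign of plasma proteins' source tissue, summed to 2.53 to 3.01 and 2.98 to 3.78 CPM. The neuron list, led by Snap25, fell in 7 of 8 genes at an adjusted P under 0.05, a call that 13.2% of all tested genes received, and 2 were down-regulated DEGs, Spink8 and Fibcd1, which are markers of CA1. The part of these cell types in the complement values was not tested.

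**Figure D4:**
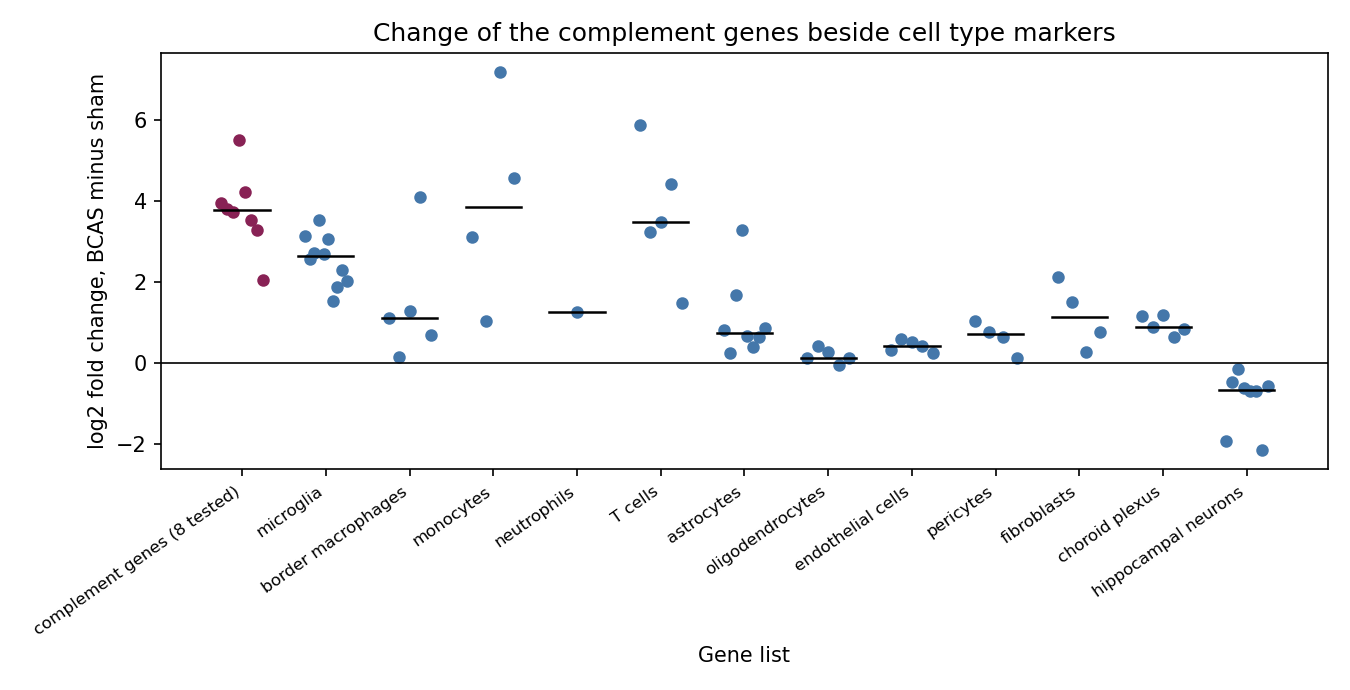
The log2 fold change of each tested gene (1 point per gene) in the complement group and in the lists of cell type markers, with a black line at each list's median. The median of the 8 complement genes is 3.77 and that of the microglia list 2.64, and all 8 lie above 2.

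The rest of the pathway was read from lists of 50 other genes, 32 of which were tested. Of these 32, 9 were up-regulated DEGs and 0 were down-regulated DEGs, against 8.47% and 0.999% of all tested genes. At an adjusted P under 0.05 alone, 13 were higher, against 18.0% of all tested genes, and 1 was lower, against 13.2%. Their median log2 fold change was 0.52, well under that of the members. In 10 of the 50 no library had more than 3 counts, among them Mbl1 and Mbl2, which encode the mannose-binding lectins, and Cfd, which encodes factor D of the alternative pathway.

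Among the other initiators and activating proteases, 2 of 8 tested genes were DEGs, the proteases that C1q recruits. C1ra was at 1.65, 2.09 and 1.602 CPM in sham mice and 5.26, 7.06 and 8.30 CPM in BCAS mice (log2 fold change 1.94, SE 0.23, adjusted P = 3.97e-04). C1s1 was at 1.71, 1.32 and 1.40 CPM in sham mice and 3.60, 3.31 and 4.39 CPM in BCAS mice (log2 fold change 1.35, SE 0.23, adjusted P = 0.00275). The proteases thus rose by less than the C1q genes they work with. Part of C1s1, 576 of its 3129 exonic bases, overlaps a gene on the other strand, and counting ignored strand. C2, the partner of C4 in the classical convertase, had a log2 fold change of 0.98 (SE 0.32, adjusted P = 0.0463), just under the fold threshold. Its adjusted P was above 0.05 under DESeq2 (0.075), without the low-count filter (0.0779) and without any 1 of the 6 mice (0.057 to 0.155). C2 shares 1656 of its 3872 exonic bases with Gm20547. The other 5 genes, among them Masp1 (0.45, adjusted P = 0.108) of the lectin pathway and Cfp (0.36, adjusted P = 0.103), which encodes properdin, did not pass the test.

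Downstream of C3 the levels were low. Hc, which encodes C5, was at 0.531, 0.239 and 0.320 CPM in sham mice and 0.707, 1.16 and 0.897 CPM in BCAS mice. Its log2 fold change of 1.33 (SE 0.43, adjusted P = 0.0436) was past the threshold narrowly, and the adjusted P ran from 0.0367 to 1.0 over 15 alternatives, 9 of which lost the call, among them those without sham mouse 2 or 3 or without BCAS mouse 1, 2 or 3. Of the 6 terminal components that form the membrane attack complex, 2 were tested, C7 (log2 fold change -0.22, adjusted P = 0.824) and C8g (0.53, adjusted P = 0.333), and 0 were DEGs. C6 was counted 0, 8 and 12 times and C9 8, 0 and 0 times in BCAS mice 1 to 3. Both had 0 counts in sham mice, their groups overlapped, and they were not tested.

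Of the soluble regulators, 2 of 5 tested genes were DEGs. Clu, which encodes clusterin, an abundant astrocyte protein that restrains the terminal complex, was at 871, 953 and 846 CPM in sham mice and 2108, 1800 and 2004 CPM in BCAS mice (log2 fold change 1.15, SE 0.12, adjusted P = 1.95e-04). Every BCAS mouse was above every sham mouse in Clu, at a smaller fold change than that of Serping1. Vtn (0.73, adjusted P = 0.00868) rose below the fold threshold, and C4bp, at a mean of 1.02 CPM in sham mice and 0.297 CPM in BCAS mice, had a log2 fold change of -1.77 (adjusted P = 0.0519).

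Of the membrane regulators, which protect the cell's own surface, 9 of 10 were tested and 0 were DEGs. The values lay between -0.48 and 0.78 with a median of -0.03. Cr1l, which encodes Crry, the broad C3 regulator of rodents, rose by 0.51 on the log2 scale (SE 0.12, adjusted P = 0.0130), and Susd4, a neuronal gene, fell by 0.48 on the log2 scale (SE 0.12, adjusted P = 0.0167). Cd46 (-0.03, adjusted P = 0.871), Cd55 (0.03, adjusted P = 0.944) and Cd59a (0.61, adjusted P = 0.291) did not pass the test.

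Of the other receptors, 4 of 6 tested genes were up-regulated DEGs, as C3ar1 and C5ar1 were. Itgax, a subunit of complement receptor 4, had the largest fold change of any complement gene examined, with 0.560, 0.568 and 0.466 CPM in sham mice and 43.95, 38.8 and 35.9 CPM in BCAS mice (log2 fold change 6.21, SE 0.16, adjusted P = 2.48e-07). BCAS mouse 1 was the highest in Itgax, whereas BCAS mouse 3 was the highest in each tested member. Itgb2, the subunit shared by receptors 3 and 4, rose by 4.12 on the log2 scale (SE 0.25, adjusted P = 1.93e-05), from a mean of 4.67 to 81.3 CPM. Itgam, the other subunit of receptor 3, rose by 3.01 on the log2 scale (SE 0.25, adjusted P = 6.73e-05), although 3450 of its 5024 exonic bases overlap Gm49368 on the same strand, and reads on those bases went to neither gene. C5ar2, the second receptor for C5a, rose by 3.20 on the log2 scale (SE 0.41, adjusted P = 6.46e-04), from a mean of 0.394 to 3.66 CPM. Cd93, once proposed as a C1q receptor, rose by 0.83 on the log2 scale (adjusted P = 0.00115), below the fold threshold, and Cr2 (-0.72, adjusted P = 0.316) did not pass the test.

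The synaptic proteins that share the C1q domain but are no part of complement were read as a contrast by name. Of 8 genes, 7 were tested and 0 were DEGs. C1ql2, made by dentate granule cells, was at 89.4, 111 and 85.8 CPM in sham mice and 136, 54.5 and 84.8 CPM in BCAS mice, with overlapping groups (log2 fold change -0.06, adjusted P = 0.901). C1ql3 was at 55.1, 48.7 and 50.7 CPM in sham mice and 33.2, 37.0 and 30.2 CPM in BCAS mice. It fell by 0.62 on the log2 scale (SE 0.10, adjusted P = 0.00184), beside the fall of the neuron list, and 1547 of its 2535 exonic bases overlap a gene on the other strand. C1ql1 had a value of 0.27 (adjusted P = 0.212).

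**Figure D5:**
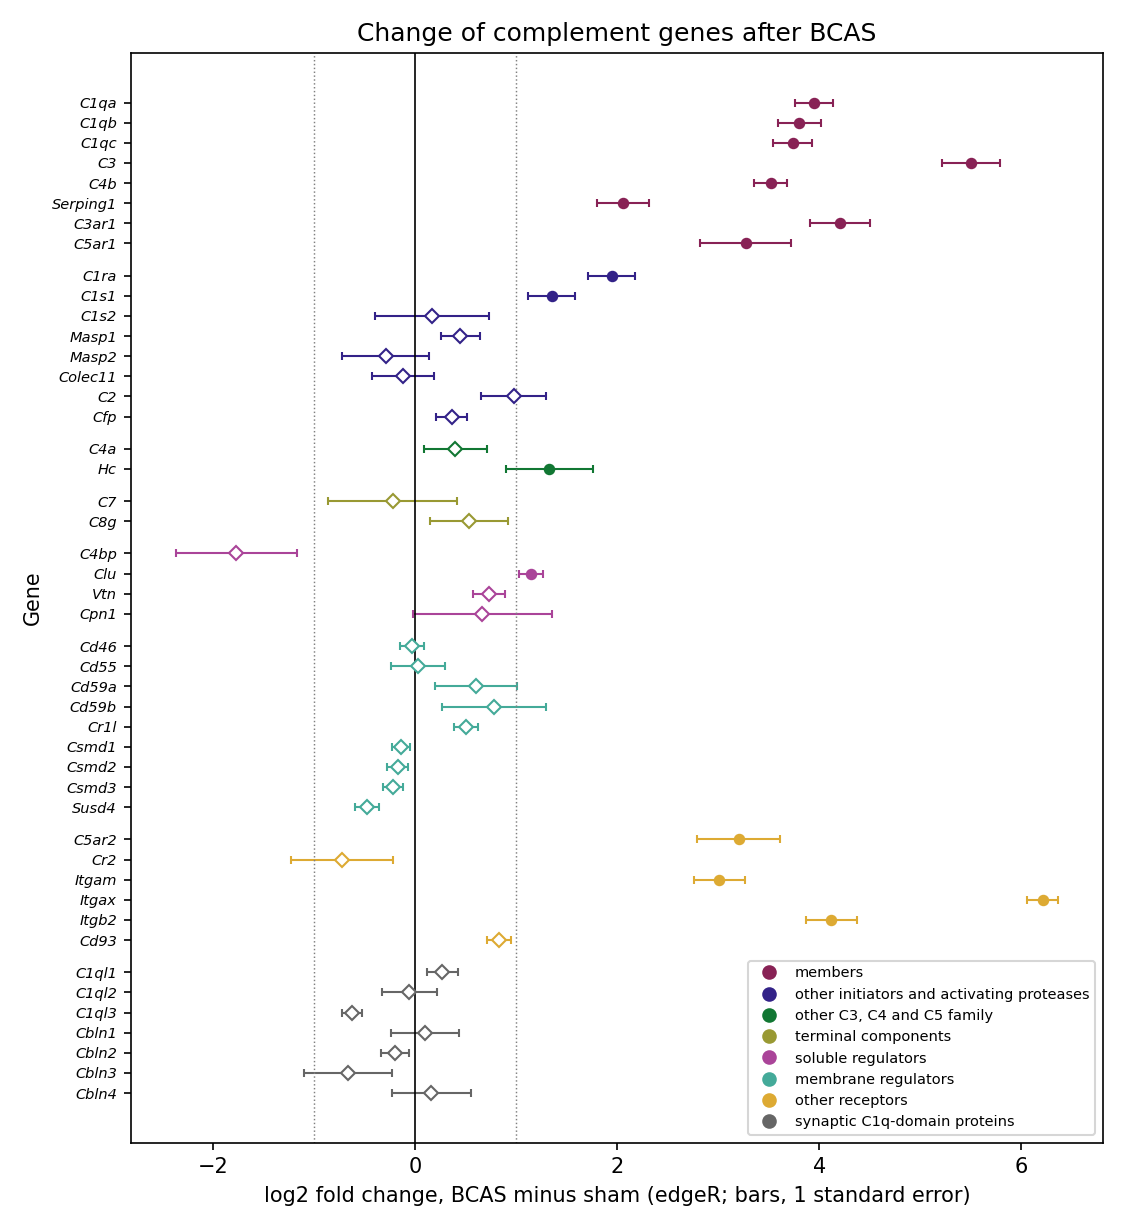
Log2 fold change of BCAS against sham with 1 standard error (bars) for the 8 tested members and for tested genes of the other lists, in colours by list. Filled circles are DEGs, open diamonds are not, and the dotted lines mark a log2 fold change of 1 in either direction. The members lie between 2.06 and 5.50, and the membrane regulators and synaptic C1q-domain genes lie between -0.66 and 0.78.

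BCAS mouse 3 had the highest level of each of the 8 tested members. This library was also the highest for 83.2% of the 1576 up-regulated DEGs, so the order is not particular to complement. The members took 0.0137 to 0.0161% of all counts with sham surgery, against 0.171%, 0.180% and 0.276% in BCAS mice 1 to 3. Without BCAS mouse 3 the log2 fold changes stayed above 1 in all 8 tested members, and over the 6 fits that left out 1 mouse they ranged from 3.71 to 4.09 for C1qa, 5.27 to 5.84 for C3 and 1.89 to 2.46 for Serping1.

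The genes most like C1qa and C3 in their profile over the 6 libraries were found by the root mean square difference of centred log2 CPM among 15623 genes with a mean of at least 1 CPM. For C1qa these were Tyrobp (difference 0.04), Csf2rb (0.07), Cd84 (0.08), Ctss (0.08) and Fcgr2b (0.10). Its partners C1qb and C1qc came at rank 6 (0.11) and rank 10 (0.12), C3ar1 at rank 37 and C4b at rank 63. For C3 the nearest were Tnfsf8 (0.22), Ifi207 (0.23), Lilrb4a (0.25), Fgr (0.32) and Cd200r4 (0.33), and the nearest member, C3ar1, came at rank 68. The sham means of Tnfsf8, Ifi207, Lilrb4a, Fgr and Cd200r4 were 0.02, 0.29, 0.20, 0.12 and 0 CPM. Each of these genes thus reached the mean of 1 CPM only through the BCAS mice, and its profile in sham mice depends on the prior count. With 6 libraries in 2 groups, the measure mostly reflects the size of the difference between the groups.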

How the data were processed

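The authors trimmed the reads with Trim Galore, used HISAT2 to align them to mm10 and featureCounts to assign them to genes, and deposited raw counts, 1 table per mouse, without normalization. The file headers name featureCounts 2.0.3 and GENCODE M20 where the submitters' notes name 1.6.3. According to the headers, strand was ignored, mates were counted separately, and reads aligned to several places or lying on several genes were not counted. Symbols were found for 54723 of 54752 genes.

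Counts were filtered with filterByExpr (18617 genes kept), normalized by TMM (factors 0.964 to 1.05) and tested with edgeR 4.0.16 in R 4.3.3 (quasi-likelihood, 3 sham against 3 BCAS, no block). P values were adjusted after Benjamini and Hochberg over all tested genes. The SE of a log2 fold change was derived as its absolute value divided by the square root of the F statistic. CPM and RPKM used TMM-scaled totals, RPKM also the exonic length in the files. Ratios within a library used log2 CPM with a prior count of 2 and exact two-sided permutation tests. A level of 3 counts, 0.0874 to 0.0994 CPM, was the detection floor (counting error only). The biological coefficient of variation was 0.161.

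The members and gene lists were chosen with earlier results of these data known. The named genes are all members, every DEG of the other complement lists (the 4 with the largest change where a list has more than 4), C4a, the C1ql genes, the most abundant gene per length and any gene at the floor in each marker list, and the 5 nearest profiles of C1qa and of C3. Of the genes the rule names, 2 are not reported here, though counts and sums over their lists include them. Others, such as C2, Vtn, C4bp, Cr1l, Susd4, Cd46, Cd55, Cd59a, Masp1, Cfp, C7, C8g, C6, C9, Cd93, Cr2, Aqp4, Spink8 and Fibcd1, were named after their values were seen. Alternatives were DESeq2 1.42.0, limma-voom (limma 3.58.1), RLE, library totals, other filters, other fold thresholds, a replicate block and leaving out each mouse. The steps were tested on simulated data. The labels and the study's text give separate mice as replicates.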

Additional observations from a re-analysis of the deposited data

How the results depend on the processing

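All 8 tested members stayed up-regulated DEGs under each of the 15 alternatives, and their 120 values kept direction and call. Among all genes, the number of DEGs was 1762, with 818 under glmTreat against a log2 fold change of 1, 5819 without a fold threshold and 1306 to 1976 when a mouse was left out. The other complement DEGs numbered 9, with 6 under glmTreat and 14 without a fold threshold. Of 16 ratios within a library, 15 never changed sign. Serping1 relative to the microglia list went from -0.383 to 0.216 with P2ry12, Tmem119 and Siglech only, whose own changes were smaller than the list's median for all 3. C1ql2 turned to 0.021 with library totals and ranged from -0.455 to 0.200 when a mouse was left out. C1s1 (adjusted P = 0.373) and Clu (0.583) lost their call under glmTreat only, and C2 passed both thresholds with library totals (log2 fold change 1.05) but had an adjusted P above 0.05 under DESeq2, with no filter, with the block (0.0863) and without each mouse in turn. Hc lost its call under DESeq2 (0.0637), with no filter (0.0548), glmTreat (1.0) and the block (0.1), and without 5 of the 6 mice in turn. These causes were not tested.

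Sham and BCAS libraries of the same replicate number in the labels had residual correlations of 0.036, -0.314 and -0.158. The residuals were centred within each group of 3 libraries, so these values cannot show whether mice were linked across groups. The file headers number the BCAS mice 2 to 4, and by that numbering the pairs were sham 2 with BCAS 1 (0.223) and sham 3 with BCAS 2 (0.347). Those values were the highest among all pairs of a sham and a BCAS library. The other mice had no partner by that numbering, so it was not fitted. With the number as a replicate block, DEGs numbered 1595 among all genes, 8 among the members and 8 among the other complement genes, and C1qa had a log2 fold change of 3.92 and C3 of 5.49.

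Low counts limit Hc and the terminal components, and for Cfb the shared exons do so too. Genes at or under 3 counts were not detectable at this depth, which does not show that they are absent.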
